A study of Mus musculus with 10 samples.

Results

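Gli2 signal in ciNSLCs was compared with Gli2 signal at day 8 of M9 treatment at all 1577 mouse loci of a deposited chromatin immunoprecipitation table. These are 2 of its 10 libraries, and a further 8 hold Gli2 at day 0, day 4 and in pri-NPC and Elk1 at all 5 stages. Day 0, day 4 and day 8 were tdMEFs before and during culture in M9, a serum-free neural medium at low oxygen. It carried bFGF, Parnate, RG108, SMER28, retinoic acid, Hh-Ag1.5, A83-01, LDN193189 and CHIR99021. Hh-Ag1.5 is known as an agonist of Smoothened, the receptor component through which Hedgehog activates Gli factors. ciNSLCs and pri-NPC are listed after the days of neural reprogramming, and the labels expand neither name nor tdMEFs and give no passage, strain or age. The series text puts the name ciNSLC next to day 0, but each has its own sample label, and groups follow the labels. Each group is 1 library, so no difference between stages was tested. The data hold no expression values, so the cell identities could not be checked against marker genes. In bulk chromatin, fewer cells with Gli2 at a locus and less Gli2 per cell cannot be told apart.

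Gli2 is a zinc finger transcription factor and a main activator at the end of the Hedgehog pathway. In neural progenitors Hedgehog signalling through Gli factors is known to promote proliferation and to act on genes such as Nes and Sox2. Transfer RNA genes are transcribed by RNA polymerase III from promoters inside the gene, the A box and the B box, which the factor TFIIIC binds. They are short and occur as near-identical copies, so reads from 1 copy can be placed at another.

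Of 207 loci where Gli2 was higher in ciNSLCs than at day 8 by 2-fold or more and beyond counting error (13.1% of all), 106 lay beside tRNA genes and 15 beside other small RNA genes. A smaller set lay over gene promoters, so sequences of both kinds are shown. The letters are from RefSeq, build GRCm38.p6, and they are shown where an annotated promoter window (250 bases before to 50 after a gene start) covers the locus. The 3 tRNA genes lie whole inside such windows, of Polg, Gm38989 and Gm46404. They are printed on the strand that holds the B box, plus for n-TRtcg5 and minus for the other two, with the B box in capitals (GGTTCGA, 2 bases of any kind, then CC).
n-TRtcg5, arginine tRNA at chr7:79466419-79466491: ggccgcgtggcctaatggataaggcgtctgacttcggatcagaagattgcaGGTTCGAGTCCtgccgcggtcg
n-TTagt9, threonine tRNA at chr7:35234770-35234843: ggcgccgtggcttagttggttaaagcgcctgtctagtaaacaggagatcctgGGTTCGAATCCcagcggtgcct
n-TVcac9, valine tRNA at chr13:23446142-23446214: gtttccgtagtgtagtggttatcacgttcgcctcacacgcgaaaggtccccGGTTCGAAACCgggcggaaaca
At the n-TRtcg5 locus Gli2 signal was 227.0, 104.4, 122.2, 280.6 and 207.3 in the 5 Gli2 libraries, always given in the order day 0, day 4, day 8, ciNSLCs and pri-NPC. At n-TTagt9 the libraries held 238.9, 52.6, 75.3, 186.8 and 177.3, and at n-TVcac9 they held 218.6, 97.7, 68.3, 200.2 and 131.0. All 3 were low at day 4 and day 8 and high in the other stages. Searched on both strands, this B box stood in 40 of 32817 promoter windows (0.122%) and in 5 of the 28 windows that Gli2 loci beside tRNA genes overlap. Those loci were chosen for a tRNA gene within 1 kb, and the B box is part of such genes. The higher share is therefore set by that choice, and no link of Gli2 to the B box is read from it.

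The promoter windows of 3 histone genes and of Cipc, which encodes a repressor of the circadian factor CLOCK, are shown for loci over promoters. Those of H2bc18, H1f2 and Cipc were gained, H1f2 from about 1 counted unit at day 8. H1f3 was not gained, since the interval of its ratio, 0.839 to 10.9, includes 1. The windows are the plus strand of GRCm38.p6, and capitals mark CCAAT on either strand and TATAAA on the printed strand. CCAAT stood in 37.4% of all windows and TATAAA on the printed strand in 8.32%. The Gli letters GACCACCCA stood on either strand in 0.253% of all windows and in 0 of the 20 windows that Gli2 loci without a small RNA gene overlap. At so low a share 20 windows cannot show a lack of these letters, and a window need not cover its whole locus.
H1f2 promoter, chr13:23738557-23738856: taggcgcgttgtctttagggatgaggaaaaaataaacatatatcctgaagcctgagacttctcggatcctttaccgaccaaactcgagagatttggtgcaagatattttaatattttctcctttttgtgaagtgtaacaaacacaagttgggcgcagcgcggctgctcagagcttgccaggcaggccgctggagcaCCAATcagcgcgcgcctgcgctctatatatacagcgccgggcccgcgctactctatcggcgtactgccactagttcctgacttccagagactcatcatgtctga
H1f3 promoter, chr13:23554782-23555081: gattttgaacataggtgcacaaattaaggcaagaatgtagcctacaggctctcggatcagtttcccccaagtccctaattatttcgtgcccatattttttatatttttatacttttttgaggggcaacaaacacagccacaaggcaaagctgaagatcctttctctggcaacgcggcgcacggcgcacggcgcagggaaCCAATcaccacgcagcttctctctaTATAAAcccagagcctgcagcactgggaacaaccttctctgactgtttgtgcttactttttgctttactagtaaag
H2bc18 promoter, chr3:96269450-96269749: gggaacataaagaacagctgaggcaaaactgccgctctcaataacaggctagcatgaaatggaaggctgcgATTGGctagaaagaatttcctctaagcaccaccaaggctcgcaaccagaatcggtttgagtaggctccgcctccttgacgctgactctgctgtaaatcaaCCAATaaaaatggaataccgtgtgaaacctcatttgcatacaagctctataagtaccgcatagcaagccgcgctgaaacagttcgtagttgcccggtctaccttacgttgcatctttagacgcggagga
Cipc promoter, chr12:86947093-86947392: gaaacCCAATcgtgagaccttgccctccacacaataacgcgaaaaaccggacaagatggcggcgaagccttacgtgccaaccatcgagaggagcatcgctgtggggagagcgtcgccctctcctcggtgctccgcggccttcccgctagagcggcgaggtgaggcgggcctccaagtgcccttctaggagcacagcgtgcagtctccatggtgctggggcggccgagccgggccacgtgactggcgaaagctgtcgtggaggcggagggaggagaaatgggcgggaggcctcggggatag

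Between day 8 and ciNSLCs Gli2 signal differed upwards by 2-fold or more at 520 of the 1577 loci (33.0%) and downwards by as much at 291 (18.5%). The 2-fold calls and log2 differences use the deposited signal plus 1, and the median log2 difference over all loci was 0.40. Ratios quoted for single loci, and their intervals, leave out the added 1. Many of these loci were low in both libraries. Low signals fell on steps of 4.27 at day 8 and 3.00 in ciNSLCs, taken as 1 counted unit each, so the precision of a ratio could be estimated. With a 95% exact counting interval that left out a ratio of 1, 207 loci were higher (13.1% of all), called gained here, and 70 were lower (4.44%). These intervals cover counting error only, and reads amplified by PCR are not independent molecules. A signal of 100 corresponded to about 8 units at day 0, 23 units at day 8, 33 units for ciNSLCs and 17 units for pri-NPC, so single values at day 0 carry the widest error. Loci entered the table by reaching about 100 in some library. The lowest maximum of any locus was 100.1 and the nearest lower signal was 99.8. Requiring 100 in a library other than the pair left 1573 loci, with 517 higher and 291 lower, and 204 and 70 beyond the counting interval. Requiring it in another Gli2 library left 687 loci, of which 245 were higher and 121 lower, and 163 and 40 beyond the interval.

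**Figure D1:**
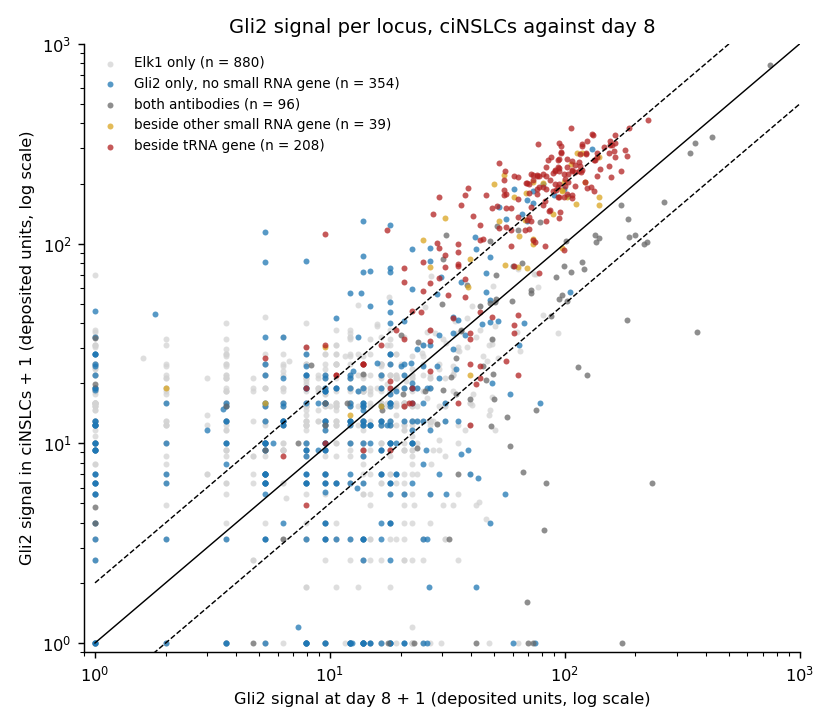
Gli2 signal plus 1 at day 8 (x axis, log scale) against ciNSLCs (y axis, log scale), 1 point per locus, coloured by the gene beside it and by which antibody reached 100. The solid line marks equal signal and the dashed lines a 2-fold difference; 117 of the 208 loci beside tRNA genes lie on or above the upper dashed line and 24 below the solid line. Of the 96 loci that reached 100 with both antibodies, 31 lie on or below the lower dashed line and 10 on or above the upper one.

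The gain was concentrated beside tRNA genes. They lie within 1 kb of 208 of the 1577 loci and of 106 of the 207 gained ones (51.2%). Median Gli2 signal over the 208 loci was 269.9, 60.2, 72.3, 173.9 and 135.6 from day 0 to pri-NPC. It was low at both M9 time points and higher in ciNSLCs and pri-NPC, without reaching day 0 on unscaled signal. Of the 208 loci 56 entered the table through Gli2 day 0 alone, so the height of day 0 there is partly set by the listing. ciNSLCs exceeded day 8 by 2-fold or more at 117 of the loci (56.2%) and fell short by as much at 6 (2.88%). The shares over all loci were 33.0% and 18.5%. Gained loci numbered 106 (51.0%, against 13.1% of all), and 1 was lower beyond the counting interval. Median signal at day 8 was 72.3 here against 12.8 over all loci, and higher signals give narrower intervals. The share of gained loci is therefore partly set by signal height. The ratio exceeded 1 at 184, with a median log2 difference of 1.07. Elk1 at the same loci had a median of 9.3 at day 8 and 5.6 in ciNSLCs, a median log2 difference of -0.28. Elk1 steps were 5.08 at day 8 and 2.82 in ciNSLCs, so these medians are few counted units and no direction is read from them. On unscaled signal, 100 of the 106 gained loci had dropped 2-fold or more from day 0 to day 8, and none was 2-fold above day 0. The loci that had dropped and were gained recovered a median of 60.2% of the signal lost between day 0 and day 8. Of 194 tRNA loci that had dropped, 100 were gained, and the rest are left out of this median. Both conditions use the same day 8 value, so the median is partly set by the choice of loci. Library medians over all loci were 35.8 at day 0, 12.8 at day 8 and 15.0 in ciNSLCs. With each library divided by its median, regained loci of all types fell from 172 to 46. The comparisons of tRNA loci with day 0 therefore depend on the scaling.

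The n-TRtct4, n-TLtag3 and n-TQctg6 locus within the span of Hes7, at chr11:69123265-69123685, held 227.0, 30.1, 8.5, 110.2 and 86.0. It was nearly empty at day 8, and the ciNSLC to day 8 ratio was 13.0 (counting interval 3.35 to 111). At n-TWcca5, a tryptophan tRNA gene at chr11:61407625-61408165, signal was 326.1, 82.3, 51.3, 251.1 and 237.3, a ratio of 4.89 (2.67 to 9.89). At n-TEctc12, a glutamate tRNA gene at chr3:97157965-97158425, it was 99.1, 45.1, 28.3, 170.9 and 131.7, a ratio of 6.04 (2.60 to 14.9). At n-TEctc12 ciNSLCs and pri-NPC both exceeded day 0. At n-TAagc17, an alanine tRNA gene at chr13:21233925-21234445, it was 345.1, 52.6, 16.5, 116.2 and 82.8, a ratio of 7.04 (2.47 to 26.4). One locus over the promoter window of Polr3e, which encodes a subunit of RNA polymerase III itself, lies beside the leucine tRNA gene n-TLaag4. Its Gli2 signal was 286.7, 67.7, 29.9, 86.4 and 37.8, a ratio of 2.89 (1.25 to 7.87).

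The 208 loci lie near 270 tRNA genes of 20 amino acid types, and 141 loci have genes of only 1 type. Among types with at least 3 such loci, the median log2 difference ran from 0.16 for tyrosine (4 loci) to 1.62 for aspartate (3 loci). Threonine loci had a median of 1.41, with 8 of 9 at least 2-fold higher, and isoleucine loci had a median of 0.48, with 3 of 7. The loci were also split by genomic position, a split chosen after the values were seen. Of 56 loci with no other within 200 kb, 43 were at least 2-fold higher and 55 had a ratio above 1, with a median signal of 85.4 at day 8 and 216.8 in ciNSLCs. Of 139 loci in blocks of 5 or more, 65 were at least 2-fold higher, with medians of 62.4 and 128.4. On chromosome 13, which holds 81 of the loci, 36 were at least 2-fold higher and 4 lower. In the chromosome 3 block (chr3:96332525-96501785) 8 of 13 loci had a ratio above 1. Within it n-TGccc6 went from 55.5 at day 8 to 24.9 in ciNSLCs, a ratio of 0.449 (0.155 to 1.12), while n-TNgtt12 of the same block went from 37.8 to 188.9, a ratio of 5.00 (2.43 to 11.2). The lowest ratio beyond counting error was at n-TMcat2 and n-TKttt23 on chromosome 13, at 62.4 and then 21.0 (0.337, 0.113 to 0.854). How the authors placed reads that match several tRNA copies is not given in the sources used here, so values of single copies in a block are uncertain.

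**Figure D2:**
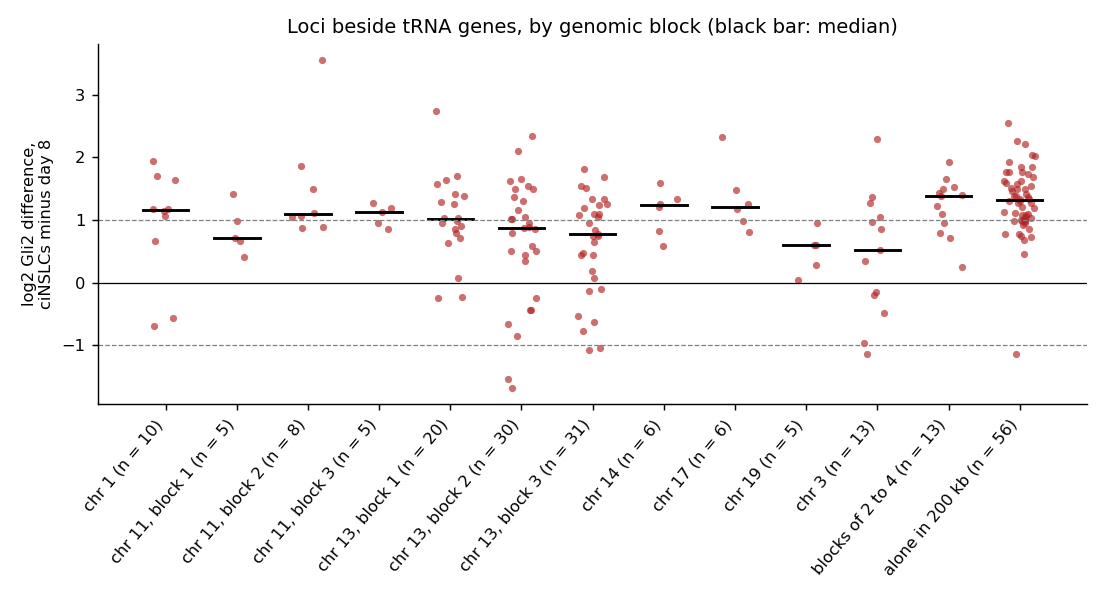
The log2 difference of Gli2 signal, ciNSLCs minus day 8 (y axis), at each locus beside a tRNA gene, by block of loci less than 200 kb apart (x axis, with the number of loci); black bars are medians and dashed lines mark 2-fold. Isolated loci lie almost all above 0, whereas the blocks on chromosomes 1, 3 and 13 also hold loci below 0.

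Of 142 tRNA loci at 100 or more in pri-NPC, all had a ratio above 1 and 94 (66.2%) were gained. Their medians were 92.3 at day 8 and 215.6 in ciNSLCs. Of the other 66, 12 (18.2%) were gained, with medians of 25.6 and 33.5. Among these were 56 loci that had reached 100 at day 0 alone, with medians of 198.2, 30.1, 24.8, 29.6 and 46.0 over the 5 libraries, and 7 (12.5%) were gained. By that definition these 56 were under 100 in ciNSLCs, so their low ciNSLC values are partly set by the choice.

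Small RNA genes other than tRNA genes lay beside 39 loci. Of these 18 (46.2%) were at least 2-fold higher, against 33.0% of all loci, and none was lower. Gained loci numbered 15 (38.5%), against 13.1% of all loci. Median signal at day 8 was 67.7 against 12.8 over all loci, so narrower intervals partly set this share too. Median Gli2 signal was 130.1, 66.8, 67.7, 133.5 and 124.5. Here the ciNSLC median lay near the day 0 median on unscaled signal, and 23 of the 39 loci were at or above their day 0 signal. Only 17 of the 39 had dropped 2-fold or more from day 0 to day 8, and 10 of these were gained. The median log2 difference from day 8 was 0.95. Elk1 medians were 5.1 at day 8 and 2.8 in ciNSLCs, near the Elk1 steps of 5.08 and 2.82, so no direction is read from them. The list of RNA polymerase III genes outside the tRNA families gave several of them. Of its 11 annotated genes 6 had a locus and 5 were gained, where 13.1% of all loci were. The median log2 difference was 1.36 against 0.40 over all loci. Rn7sk encodes the 7SK RNA, which holds the elongation factor P-TEFb inactive, and its Gli2 signal was 218.6, 82.7, 105.2, 248.8 and 224.3. Its ratio was 2.37 (1.48 to 3.81). Vaultrc5, a vault RNA gene, had 310.6, 36.7, 79.5, 201.1 and 241.9, a ratio of 2.53 (1.47 to 4.37). Rny1, a Y RNA gene, had 242.5, 22.1, 139.3, 270.7 and 202.1, a ratio of 1.94 (1.27 to 2.95), just under 2-fold. In all 3 the lowest library was day 4, and ciNSLCs exceeded day 0 at Rn7sk and Rny1 and lay below it at Vaultrc5. Rmrp, the RNA of RNase MRP, went from 59.8 to 169.5, Rny3 from 67.7 to 179.2 and Rn7s2, a 7SL gene of the signal recognition particle, from 25.6 to 75.2.

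Genes of the spliceosomal and nucleolar RNAs, most of them transcribed by RNA polymerase II, gave 8 loci from 14 annotated genes on the list. Of the 8 loci 2 were gained, Rnu1a1 and Rnu11, where 13.1% of all loci were. At Rnu1a1, a U1 gene, signal was 142.0, 157.9, 118.0, 282.7 and 196.9, a ratio of 2.40 (1.53 to 3.74). At Rnu11, of the minor spliceosome, it was 114.6, 127.8, 98.2, 203.2 and 299.9, a ratio of 2.07 (1.28 to 3.49). At Rnu2-10, a U2 gene, it was 94.3, 142.4, 120.6, 201.8 and 278.4, a ratio of 1.67 (1.07 to 2.71). Each of the 3 was higher at day 4 than at day 0, and in ciNSLCs each stood above all the tdMEF libraries. Of the U3 genes near Rnu1a1, Rnu3b4 went from 66.7 to 130.5 (interval of the ratio 1.04 to 3.59) and Rnu3b3 from 139.3 to 155.2 (0.702 to 1.77), and these intervals overlap. The list median was 0.83 against 0.40 over all loci. Among the unnamed small RNA genes, Gm24019 went from 49.0 to 197.4 (4.03, 2.21 to 8.85), LOC115488100 with Gm23296 from 53.9 to 220.5 (4.09, 2.17 to 7.76), Gm25064 from 29.9 to 133.5 (4.46, 1.97 to 11.6) and Gm25099 from 24.0 to 103.5 (4.31, 1.65 to 11.6).

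**Figure D3:**
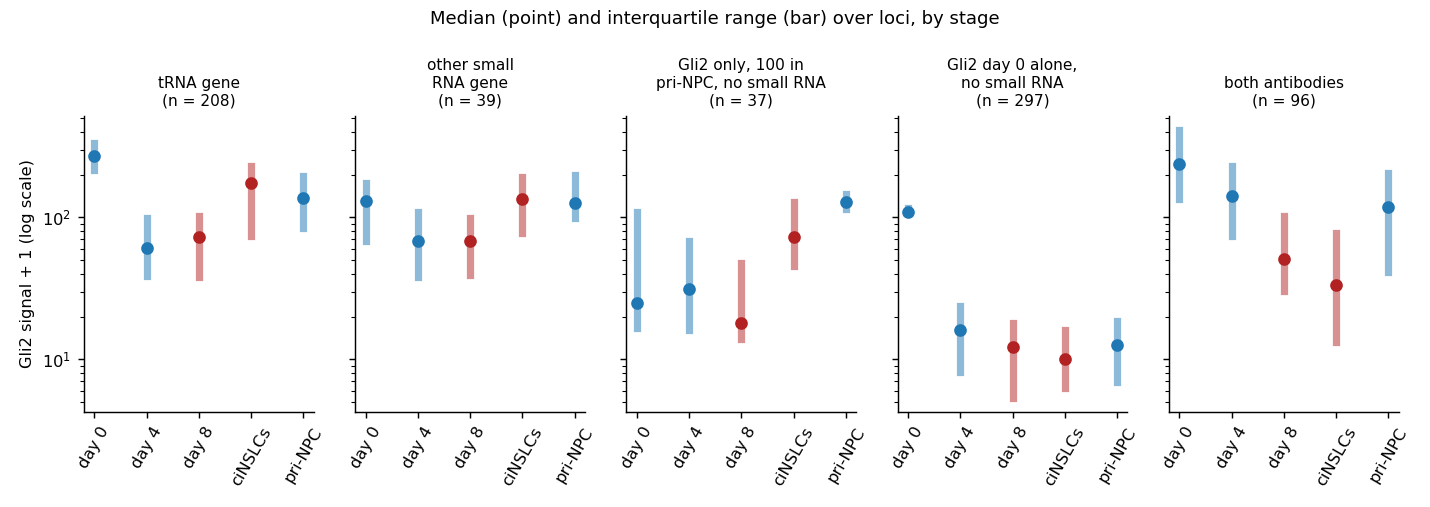
Gli2 signal plus 1 (y axis, log scale) at the 5 stages (x axis) in 5 groups of loci; points are medians and bars interquartile ranges over loci, 1 library per stage, with day 8 and ciNSLCs in red. The small RNA groups and the Gli2-only loci at 100 in pri-NPC stand higher in ciNSLCs than at day 8. Loci at 100 at day 0 alone stay low, and by that definition they were under 100 in every other library.

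Away from small RNA genes, 90 loci were at 100 or more in Gli2 pri-NPC. Of these 35 (38.9%) were at least 2-fold higher in ciNSLCs than at day 8, against 33.0% of all loci, and 8 lower. Gained loci numbered 27 (30.0%), 7 were lower beyond the counting interval, and the median log2 difference was 0.53. The 37 of them that were under 100 in every Elk1 library form a narrower group, which was chosen after values were seen. Its median Gli2 signal was 23.9, 30.1, 17.1, 72.0 and 127.1. Of the 37 loci 27 (73.0%) were at least 2-fold higher in ciNSLCs than at day 8, and none was lower. Gained loci numbered 22 (59.5%), against 13.1% of all loci, and the median log2 difference was 1.62. Among the 24 loci that had reached 100 in Gli2 pri-NPC and in no other library, 19 were at least 2-fold higher and 14 gained. Of 297 loci without a small RNA gene at 100 in day 0 alone, 71 (23.9%) were at least 2-fold higher and 78 (26.3%) lower, and 12 were gained. By that definition these 297 were under 100 in ciNSLCs, so low ciNSLC values there are partly set by the choice.

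Nes encodes nestin, an intermediate filament protein of neural stem cells. Its locus inside the gene, at chr3:87974205-87974645, had Gli2 signal of 19.0, 7.5, 12.8, 128.2 and 142.8. It was low in all 3 tdMEF libraries and high in ciNSLCs and pri-NPC, with a ratio of 10.0 (3.22 to 50.7), and Elk1 there was listed at 0 in ciNSLCs and pri-NPC. Inka2, which encodes an inhibitor of the kinase Pak4, had 47.8, 30.1, 17.1, 122.9 and 211.2 at chr3:105710205-105710605, a ratio of 7.19 (2.61 to 27.7). Egfr, the epidermal growth factor receptor, had 35.8, 15.0, 6.9, 80.9 and 153.2 at chr11:16832065-16832445, a ratio of 11.7 (2.38 to 82.3). Itpr2, an inositol trisphosphate receptor, was listed at 0 at day 0 and had 15.0, 12.8, 71.3 and 112.1 afterwards at chr6:146343145-146343445, a ratio of 5.57 (1.71 to 29.1). Egfr and Itpr2 entered the table through Gli2 pri-NPC alone, so that pri-NPC was the highest library there was set by the listing. In each of these genes day 4 and day 8 lay below ciNSLCs. Whether these positions are exonic or intronic was not assigned, because the annotation used holds gene spans only.

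**Figure D4:**
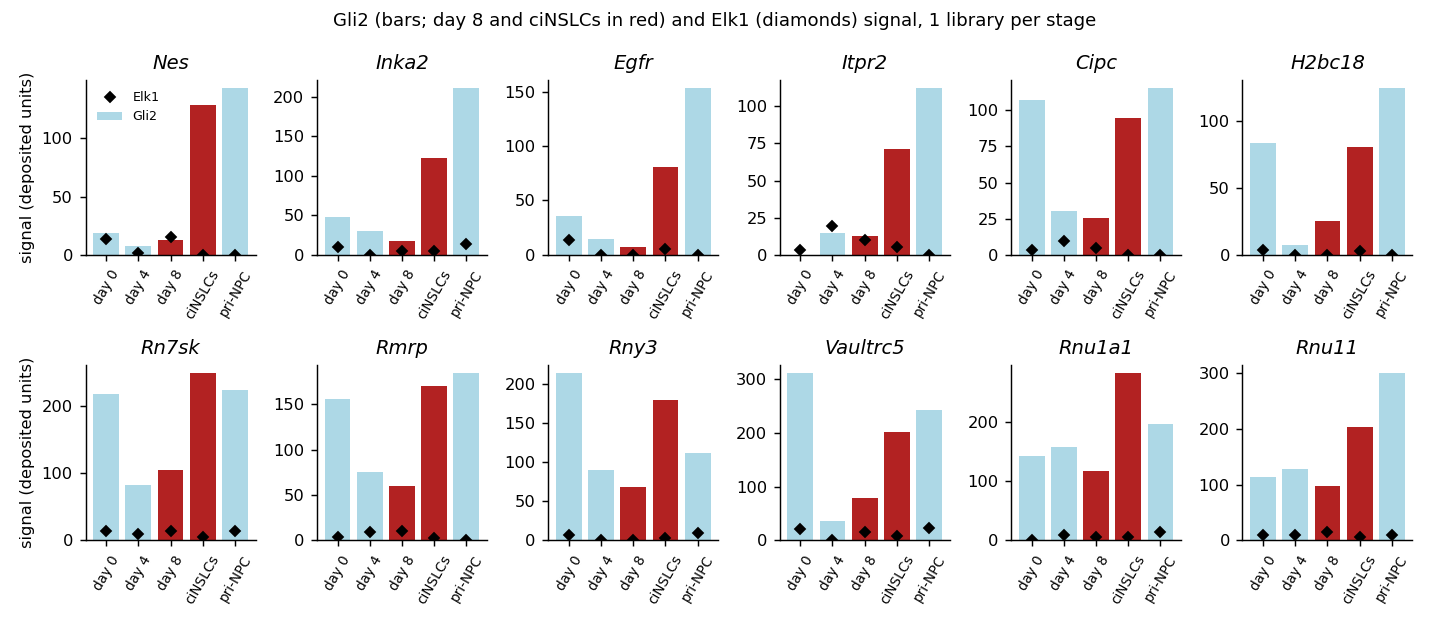
Gli2 signal (bars, deposited units, y axes from 0 and scaled per panel) and Elk1 signal (diamonds) at the 5 stages (x axis) at 12 loci named by the gene they lie in or beside, 1 library per stage, with day 8 and ciNSLCs in red. Nes goes from 12.8 to 128.2, Rn7sk from 105.2 to 248.8, and Elk1 stays low at all 12.

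Loci beside genes or far from them gave further cases. Near Was, an actin regulator of blood cells, chrX:8101065-8101405 held 0, 7.5, 21.4, 92.9 and 142.1, a ratio of 4.34 (1.68 to 14.3). Near Fosb, an immediate-early transcription factor, chr7:19301025-19301605 held 341.6, 105.3, 129.2, 298.4 and 207.3, a ratio of 2.31 (1.53 to 3.61), which was a return towards day 0. More than 50 kb from a gene, chr10:105638865-105639165 held 11.9, 15.0, 4.3, 80.2 and 129.1 (18.7, 3.13 to 776), and chr15:103627105-103627545 held 11.9, 29.6, 12.8, 86.2 and 182.5 (6.73, 2.10 to 34.8). Signal at chr1:157039365-157039885 was 15.5, 15.0, 13.8, 72.0 and 253.6 (5.22, 1.71 to 29.1) and at chr14:54108045-54108405 it was 23.9, 7.1, 17.1, 74.3 and 125.8 (4.35, 1.52 to 17.4). These 4 loci and the one near Was entered the table through Gli2 pri-NPC alone, so that pri-NPC was highest there was set by the listing. The loci at chr12:47833925-47834145 and chr6:105235725-105235985 were listed at 0 at day 8 and held 69.0 and 36.0 in ciNSLCs, and near Gm12789 and Gm9733 the ciNSLC signal was 33.0 and 30.0 after 0 at day 8. In these last loci no library of Gli2 reached 100.

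Of all 207 gained loci, 172 had dropped 2-fold or more from day 0 to day 8 and are called regained. Newly gained loci, at least 2-fold over both day 8 and day 0, numbered 37, of which 13 met both definitions. Only 8 of the 37 exceeded day 0 beyond its counting interval. With each library divided by its median, regained loci numbered 46 and newly gained loci 76, so this split depends on the scaling. Of 899 loci at least 2-fold lower at day 8 than at day 0, 172 (19.1%) were gained in ciNSLCs, and beside tRNA genes 100 of 194 (51.5%) were. Of the 1577 loci, 357 entered the table through Gli2 day 0 alone, where a signal of 100 is about 8 units. A drop from day 0 at those loci is partly set by the listing, and so is a ciNSLC value below day 0. The 3 loci that reached 100 in ciNSLCs and in no other library were chr14:63962585-63962865 near 4930578I06Rik, from 4.3 to 113.9 (26.5, 4.51 to 1080), chr6:128760465-128760905, from 51.3 to 152.2, and chr16:3243125-3243365, from 40.5 to 107.2. They entered the table through ciNSLCs, so a high ratio there is partly set by that choice.

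Gene promoters outside the small RNA families held few loci. Of 14 Gli2-only loci over a promoter window 9 (64.3%) were at least 2-fold higher and 6 (42.9%) gained, against 33.0% and 13.1% of all loci. None of the 14 was 2-fold lower, and the median log2 difference was 1.20. Of 3 Elk1-only loci over a promoter window 0 were higher and 1 lower. The locus over the Gm33862 promoter at Sfi1, where both antibodies reached 100, went from 182.3 to 40.5, a ratio of 0.222 (0.105 to 0.402). Off promoter windows the same class of 340 loci had 96 higher and 85 lower and a median of 0.09. At Cipc, signal was 107.5, 30.1, 25.6, 94.5 and 115.4, a ratio of 3.69 (1.49 to 10.6). At H2bc18, a core histone gene outside the fixed list, it was 83.6, 7.5, 25.6, 80.9 and 124.5 (3.16, 1.28 to 9.36). At H1f2, a linker histone gene, it was 39.4, 44.7, 4.3, 33.0 and 119.3 (7.67, 1.12 to 332). At H1f3 it was 23.9, 30.1, 17.1, 44.3 and 119.3, and the interval of its ratio, 0.839 to 10.9, includes 1. The 3 histone loci entered the table through Gli2 pri-NPC alone, so that pri-NPC was the highest of their 5 libraries was set by the listing. Polq, a DNA repair polymerase, went from 21.4 to 58.6 (2.74, 1.02 to 9.58).

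Of 45 annotated genes of the Hedgehog pathway 1 had a locus, in Smo, with 123.0, 29.6, 3.7, 0 and 14.3. Of 53 Gli target genes 4 had a locus, and Nes alone was gained, where 13.1% of all loci were. Osr2 went from 6.9 to 18, Pax6 from 8.5 to 5.3 and Sox2 from 21.4 to 26.3, all within counting error. Of 49 neural progenitor genes 4 had a locus, with Msi2 at 6.9 and 5.3 beside the 3 shared with the Gli targets. The neuronal list had 5 loci, of which 3 were at least 2-fold higher, against 33.0% of all loci, and 0 beyond counting error. These were Nlgn1, listed at 0 and then at 12.0, and both loci in Cntnap2, from 1.0 to 9.0 and from 6.9 to 24.0. Elavl2 went from 6.9 to 14.3 and Slc17a6 from 15.5 to 11.3. The astroglial gene Slc1a3 had 19.7 and 21.0. The fibroblast list had 4 loci with none higher and 1 lower, against 33.0% and 18.5% of all loci. The lower one was Thbs1, from 17.1 to 5.3, within counting error. The immediate-early list had 6 loci with 2 higher, among them Fosb, and 1 lower, against 33.0% and 18.5% of all loci. The lower one was Egr1, from 36.8 to 10.6, within counting error.

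Dense clusters, with at least 3 loci per 100 kb and no small RNA gene beside them, went in both directions. Of their 192 loci 37 (19.3%) were at least 2-fold higher and 49 (25.5%) lower, against 33.0% and 18.5% of all loci. The median log2 difference was -0.19. At the Sfi1 cluster on chromosome 11 the median over 21 loci went from 100.3 to 80.2, and Elk1 from 171.1 to 95.8. On chromosome 9 (chr9:2999865-3038365) the median over 19 loci was 254.1 in day 0, 29.3 in day 8, 36.0 for ciNSLCs and 168.8 for pri-NPC. It was high in day 0 and pri-NPC and low in both libraries of the pair. In the cluster at chr6:128759805-128843625 near Klrb1c 8 of 9 loci were gained, with medians of 170.8, 66.8, 68.3, 164.9 and 106.9. The gained locus at chr6:128760465-128760905 among them entered the table through ciNSLCs alone, so its gain is partly set by the listing. Elk1 medians of this cluster were 10.2 and 2.8, few counted units. The cluster loci picked by the highest lower bound were listed at 0 or 0.8 at day 8. They held 45.0 at chr13:12888605-12888845, 43.6 near Trpm8, 35.3 at chr13:12869645-12869885 and 32.7 at chr9:3023065-3023725 in ciNSLCs.

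Losses were more frequent where both antibodies had reached 100. Of the 96 such loci 55 are dense cluster loci already counted above, and 14 (25.5%) of the 55 were at least 2-fold lower. Of these 96 loci, 31 (32.3%) were at least 2-fold lower for Gli2, against 18.5% of all loci, and 10 (10.4%) higher, against 33.0%. Beyond the counting interval 23 (24.0%) were lower, against 4.44% of all loci. Their median Gli2 signal at day 8 was 50.0 against 12.8 over all loci, and higher signals give narrower intervals. Gli2 reached 100 at 25 of them at day 8 and at 19 in ciNSLCs, so the pair itself could enter the choice of this class. The median log2 difference was -0.45 for Gli2 and -1.07 for Elk1. The locus in Cmss1, at chr16:57391365-57391825, had Gli2 signal of 482.9, 227.1, 174.3, 0 and 80.1, and Elk1 went from 90.5 to 8.5 there. At chr3:5860485-5860925 Gli2 went from 234.8 to 5.3, and near P4ha2 from 72.4 to 0. Elk1 in ciNSLCs was 2.8 and 0.7 at these loci, from 98.1 and 79.8. The locus near Scaf8 reached 100 for Gli2 alone and went from 73.4 to 0, with Elk1 from 57.8 to 7.8. Over all loci Elk1 differed upwards by 2-fold or more at 376 (23.8%) and downwards at 446 (28.3%), and 18 (1.14%) and 104 (6.59%) were beyond the counting interval.

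**Figure D5:**
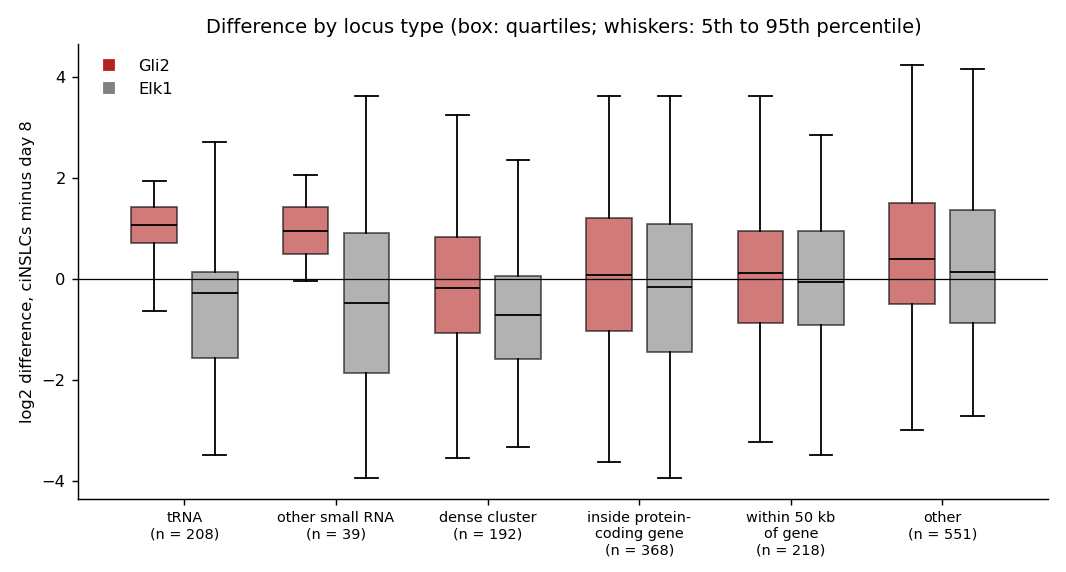
The log2 difference of signal, ciNSLCs minus day 8 (y axis), for Gli2 (red) and Elk1 (grey) by type of locus (x axis, with the number of loci); boxes are quartiles with the median and whiskers run from the 5th to the 95th percentile over loci. The Gli2 medians beside tRNA (1.07) and other small RNA genes (0.95) are above 0. The Elk1 medians of both are below it, at signals of few counted units.

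The 2 library medians over all loci were 12.8 at day 8 and 15.0 in ciNSLCs. Dividing by their ratio, a shift of 0.23 on the log2 scale, left median log2 differences of 0.84 beside tRNA genes, 0.73 beside other small RNA genes, -0.40 in clusters and 0.19 over all loci. After it 81 tRNA loci were at least 2-fold higher and 8 lower. With background units included in the counting error, 106 of 106 gained tRNA loci, 15 of 15 other small RNA loci and 18 of 25 cluster loci also passed.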

How the data were processed

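Chromatin from tdMEFs at day 0, day 4 and day 8 of M9 treatment, ciNSLCs and pri-NPC was immunoprecipitated with Gli2 or Elk1 antibody, 1 library each. Bowtie2, SAMtools, FastQC and CASAVA 1.8.4 are named with build mm10, per the submitters' processing notes. No source used here gives the peak caller, the scaling or the treatment of reads with several matches. The authors deposited a signal per locus and library, never negative; total depth is unknown. Coordinates are as deposited, and their first base may be counted from 0.

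Steps and a background step per stage were fitted to signals below 60 (tolerance 0.06). Signal over step gave counted units and the exact conditional binomial interval of each ratio, which ignores background. The scripts were tested on simulated data. Differences are log2 of signal plus 1, which understates differences of low signals. Genes came from RefSeq GRCm38.p6 (49997 genes): a small RNA gene within 1 kb, otherwise a gene overlapping or within 50 kb. Members, lists and types were chosen with earlier results of these data known. Named loci were, per type, the 4 with the highest lower bound, the 4 with the lowest upper bound, those listed through ciNSLCs alone, all members of the Hedgehog, Gli target, neural and astroglial lists, and the 3 highest polymerase III and spliceosomal or nucleolar loci. Other loci named were chosen after their values were seen. Python 3.11.15, numpy 2.4.6, scipy 1.17.1 and pandas 2.3.3 were used.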

Additional observations from a re-analysis of the deposited data

How the results depend on the processing

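Of 104 alternative values for 21 results, 81 kept within the limits set for a change and 23 moved. The 520 loci higher and 291 lower became 301 higher with a 3-fold limit, 304 and 133 when 1 library of the pair had to hold 20, 207 and 70 with the counting interval, and 206 and 40 with background units in the counting error, an alternative chosen after seeing the data. The 517 higher and 291 lower of the loci with 100 in another library became 300 higher, then 301 and 133, 204 and 70, and 203 and 40 under the same settings, 140 and 31 with 150 in another library, and 245 and 121 with 100 in another Gli2 library. Other small RNA loci lower went from 0 to 1 with genes within 5 kb and to 1 with median scaling. Regained loci went from 172 to 81 with a 3-fold limit and to 46 with median scaling, and newly gained loci from 37 to 76 with median scaling. That scaling also divides day 0, whose median over loci was 35.8 against 12.8 at day 8, so the split of regained and newly gained loci depends on it. With 1 library per group no replicate could be left out. No paired analysis was possible because each group holds 1 library.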
